A study of Mus musculus with 24 samples.

Results

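The genes described here encode adhesion proteins of the cell surface: the cadherins whose symbol carries a number, the contactins (Cntn), the contactin-associated proteins (Cntnap), the neurexins (Nrxn), the neuroligins (Nlgn), the leucine-rich repeat proteins of the Lrrtm, Flrt and Slitrk families, and Lrp1b. Their promoters were read through promoter capture Hi-C, in which DNA ends that were joined inside the nucleus are enriched for HindIII fragments that hold promoters. Each such captured fragment is called a bait. A bait was taken as a member if it held, or lay within 1 kb of, an annotated autosomal end of one of these genes in mouse build mm10. That gave 50 baits of 22203, which cover 46 of the 53 genes with such a symbol, and 43 of the 50 hold the gene end itself. Cdh12, Cdh13, Cdh9, Cntn3, Flrt1, Lrrtm1 and Lrrtm2 had no bait by this rule. For 4 genes with a bait at each end (Cdh24, Lrrtm3, Nlgn2 and Nrxn2), start and end below mean the lower and the upper coordinate and not the direction of transcription. By the RefSeq promoter table, the end baits of Lrrtm3, Cdh24 and Nlgn2 are those at the transcription start. In 7 cases the bait also lies at another gene, among them Cdh24 start with Psmb11, Cdh24 end with Acin1, Cdh23 with Slc29a3, Nlgn2 start with Spem1 and Nrxn2 end with Slc22a12, and a contact of such a bait belongs to both.

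Classical cadherins hold cells together by binding the same or a related cadherin on the next cell, and their cytoplasmic tails bind catenins. Neurexins on the presynaptic side bind neuroligins and Lrrtm proteins on the postsynaptic side, Slitrk proteins bind receptor protein tyrosine phosphatases, and Flrt proteins bind Unc5 receptors and latrophilins. Many of these genes are very long and lie in gene-poor surroundings, and several are best known from neurons. Cranial neural crest cells leave the dorsal neural tube, with a switch of cadherins, and form the skeleton and connective tissue of the face as well as neurons and glia.

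The series holds 24 libraries of mouse cranial neural crest cells in 12 groups of 2. At E11.5 the labels give a deletion named Hoxa2PTE-42kb-del in PA2, a deletion named Hoxa2PTE-36kb-del in Md and PA2, an Ezh2cKO (Ezh2 encodes the methyltransferase of Polycomb repressive complex 2) in FNP, Mx, Md and PA2, and WT in the same 4 tissues. At E8.5 they give WT neural crest progenitors. The labels' protocol names sorting for Wnt1::Cre;ROSARFP and Ezh2cKO embryos, so WT cells may carry Cre and a reporter. The sources used here give neither the Cre that acts in the Ezh2cKO nor the positions of the deletions, and do not say whether the deletion cells were sorted. One PA2 library of the 36kb deletion carries another sample's title in its genotype field, and its own title set its group. The WT libraries serve as controls for several comparisons, which are therefore not independent of each other.

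The measure throughout is the number of called interactions of a bait with other fragments of its chromosome (cis calls), where a call is a pair with a CHiCAGO score of at least 5. Libraries held 136997 to 183781 cis calls, and the read depth behind them is unknown, so each count was taken relative to its library's total. A bait with no listed call is given as 0, which says only that no pair reached the score. In these bulk libraries, contact in fewer cells and weaker contact per cell cannot be told apart. No RNA was measured here, so neither the loss of Ezh2 nor the cell type could be checked by expression. At the promoters of 11 mesenchymal marker genes of neural crest that had a bait, the summed calls were 157 to 246 in Ezh2cKO, 165 to 218 in E11.5 WT and 150 to 153 in E8.5 WT libraries. Those at 8 blood marker genes were 45 to 70 in Ezh2cKO, 91 to 119 in E11.5 WT and 124 to 159 in E8.5 WT libraries, and the part of other cells in the results was not tested.

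Promoter sequences are shown for 4 of the genes whose bait lies at or near the RefSeq start and had more calls in E11.5 WT than in E8.5 WT, as described further on. Each window runs from 250 bases before to 50 bases after the RefSeq transcription start in GRCm38.p6, 5′ to 3′ on the gene's strand, with every CG pair in capitals. They are chr12:95691976-95692275 on the plus strand for Flrt2, chr6:45059811-45060110 on the plus strand for Cntnap2, chr10:64090206-64090505 on the minus strand for Lrrtm3 and chr14:110755100-110755399 on the minus strand for Slitrk6.
Flrt2: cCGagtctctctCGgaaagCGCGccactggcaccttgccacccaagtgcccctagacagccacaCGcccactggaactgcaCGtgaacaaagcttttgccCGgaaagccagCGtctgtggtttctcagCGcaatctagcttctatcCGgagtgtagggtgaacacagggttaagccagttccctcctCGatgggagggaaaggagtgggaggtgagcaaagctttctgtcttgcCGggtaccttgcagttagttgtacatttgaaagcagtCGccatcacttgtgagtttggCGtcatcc
Cntnap2: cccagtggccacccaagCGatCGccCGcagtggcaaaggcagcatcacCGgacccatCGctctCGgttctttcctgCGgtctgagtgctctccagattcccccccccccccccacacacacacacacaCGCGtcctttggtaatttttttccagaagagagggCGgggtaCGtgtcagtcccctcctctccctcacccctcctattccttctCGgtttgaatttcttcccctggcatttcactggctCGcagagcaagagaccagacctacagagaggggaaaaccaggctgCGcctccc
Lrrtm3: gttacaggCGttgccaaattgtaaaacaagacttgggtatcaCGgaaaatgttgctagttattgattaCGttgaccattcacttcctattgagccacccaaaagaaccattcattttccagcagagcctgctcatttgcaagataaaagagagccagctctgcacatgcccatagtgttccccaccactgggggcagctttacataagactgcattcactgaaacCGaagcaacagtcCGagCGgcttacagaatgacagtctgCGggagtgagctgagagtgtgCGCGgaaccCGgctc
Slitrk6: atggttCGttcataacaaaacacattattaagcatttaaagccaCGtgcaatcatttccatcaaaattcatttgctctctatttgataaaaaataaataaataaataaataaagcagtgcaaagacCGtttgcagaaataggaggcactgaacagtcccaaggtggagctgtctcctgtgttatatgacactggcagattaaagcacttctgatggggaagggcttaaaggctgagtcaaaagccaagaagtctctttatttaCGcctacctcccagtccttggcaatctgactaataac

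Flrt2 and Cntnap2 have 14 CG pairs each in this window, Lrrtm3 has 10 and Slitrk6 has 4, in a stretch rich in A and T. The table held 30 promoters of 26 of the genes within 1 kb of their bait. Their median was 12 CG pairs (range 4 to 38), against 7 over all 32851 promoters in the table, and their median GC content was 56.7%, against 52.7%. The letters TATAAA, searched on both strands, were found in 2 of the 30 (6.67%), against 13.6% of all promoters. The letters CCAAT were found in 11 of them (36.7%), against 37.4%.

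The 50 baits together took up a larger share of the contacts at E11.5 than at E8.5. E11.5 WT libraries held 571 to 628 of their cis calls at these baits (median 610), and the E8.5 WT libraries held 348 and 367. As a share of all cis calls in the library this was 0.346% to 0.382% in E11.5 WT, against 0.233% in each E8.5 WT library, so that the ranges do not overlap. Slitrk3 and Slitrk6 alone made up 14.4% and 10.7% of all 13606 calls at the 50 baits. Without both, the share was 0.244% to 0.285% in E11.5 WT libraries and 0.182% and 0.193% in E8.5 WT libraries. The share was 0.356% to 0.402% in Ezh2cKO. In the 36kb deletion it was 0.336% and 0.330% in Md and 0.366% and 0.349% in PA2, and in the 42kb deletion it was 0.328% and 0.335%. Both Md libraries of the 36kb deletion and both libraries of the 42kb deletion lie below every E11.5 WT library. No test is given for these shares, since they are a score over chosen genes.

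Taken over all 50 baits, the calls of E11.5 WT libraries lay farther from their baits. The median distance between a bait and its called partner was 1156 to 1578 kb in E11.5 WT libraries, against 783 and 817 kb in the E8.5 WT libraries. Over all baits of the genome it was 443 to 492 kb, against 434 and 447 kb. Calls over more than 1 Mb made up 53.8% to 60.0% of the calls at the 50 baits in E11.5 WT libraries, against 41.1% and 42.2% at E8.5. With Slitrk3 left out these shares were 43.5% to 52.0%, against 33.0% and 36.3%. Over all baits these shares were 29.2% to 32.6% in E11.5 WT libraries, against 31.5% and 32.4% at E8.5. The 433 baits at other genes of 300 kb or longer shared part of the shift, with 35.6% to 42% of calls over 1 Mb in E11.5 WT libraries and 28.9% and 30.5% at E8.5. Calls over 10 Mb went the other way, with 0.810% to 3.20% of the calls at the 50 baits in E11.5 WT libraries, against 8.05% and 9.54% at E8.5. Over all baits they fell as well, with 7.90% to 9.26% in E11.5 WT libraries, against 14.2% and 14.7% at E8.5. Bait by bait, over the 18 baits with enough calls at both stages, the median change in log10 distance was -0.01. The Ezh2cKO libraries had 46.1% to 56.0% of their calls at the 50 baits over 1 Mb, and 23.0% to 31.6% over all baits, also lower in part than in E11.5 WT.

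**Figure D1:**
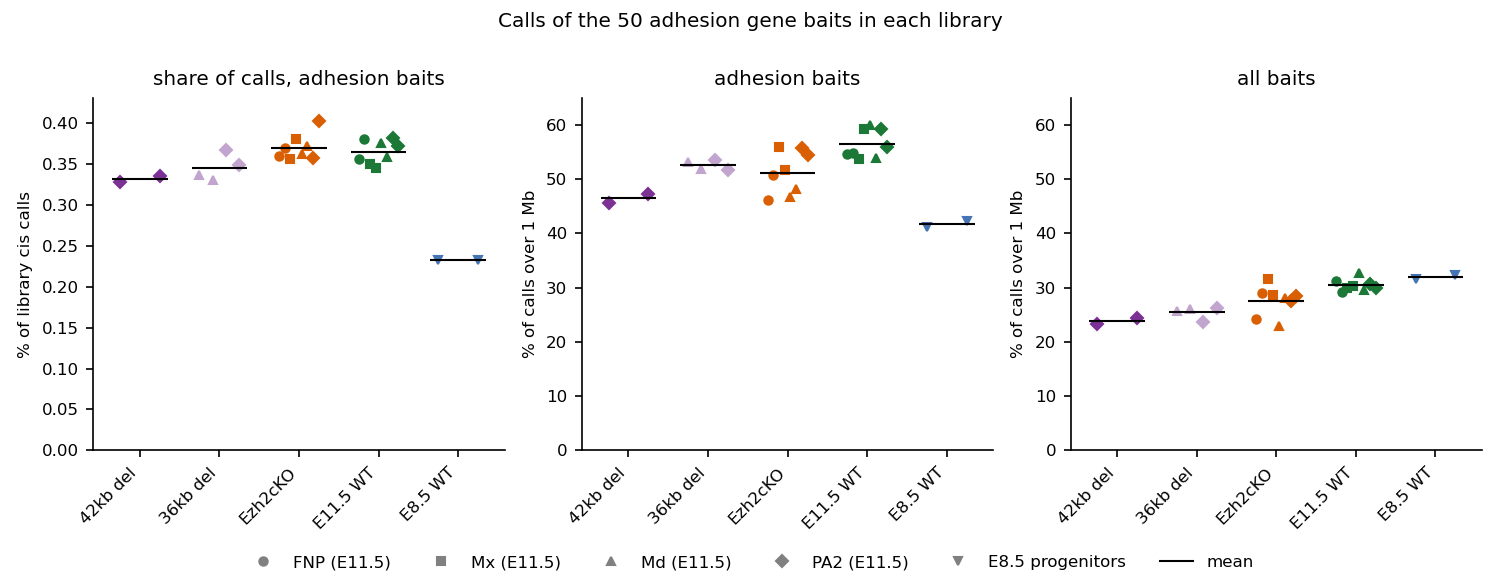
Each point is 1 library, placed by group, with deletions, Ezh2cKO, E11.5 WT and E8.5 WT from left to right. The panels show the percent of a library's cis calls at the 50 adhesion gene baits, the percent of their calls over 1 Mb and the same percent for all baits. The 2 E8.5 WT libraries, at 0.233% and at 41.1% and 42.2%, lie below all E11.5 WT libraries in the first panels and within their range in the last.

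For single baits, only those with a mean of at least 5 calls per library were tested: 26 of the 50, and 10344 baits in all. Cdh15 with a mean of 4.50 calls fell just under this minimum and Cdh11 with 5.33 just above it. The 26 held 90.9% of the calls at the 50 baits, and their means ran up to 81.9 calls at Slitrk3. All 5 baits of type I cadherins were under the minimum. Cdh1, the epithelial cadherin, had 0 to 3 calls in E11.5 WT libraries and 0 and 1 in the E8.5 WT libraries. Cdh2, the cadherin of neural tube and mesenchyme, had 0 to 6 at E11.5, against 1 and 2 at E8.5. With so few calls, no difference was tested for either gene.

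The tested baits ranged widely in how far away their contacts lay, and many had them toward one side. Their median distance had a median of 1044 kb over the 26 baits and ran from 88.4 kb at Cntnap1 to 3433 kb at Cdh8, beside a median of 391 kb over all tested baits and 655 kb over 213 tested baits of other long genes. In 13 of the 26 the median was over 1 Mb (50%), beside 21.1% of all tested baits and 31.0% of those of other long genes. At least 90% of the calls lay on one side of the bait in 18 of the 26 (69.2%), which is close to the 69.0% of other long genes and above the 45.8% of all tested baits. Contacts inside the own gene were rare: 19 of the 26 had none. Cdh23, a cadherin of hair cell tip links, with 91.9%, and Cntnap2 with 63.6% had most of theirs there.

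The regions that were contacted ranged from gene-free to gene-dense. For 8 of the 26 baits (Cdh6, Cdh8, Cdh11, Cntn5, Flrt2, Lrrtm3 end, Slitrk5 and Slitrk6), the region with the most calls held no end of a protein-coding gene and lay inside none. The Slitrk6 bait directed 99.1% of its calls to chr14:109763610-110453133, and Lrrtm3 end 80.7% to chr10:66031828-66907137. Cntn5 directed 97.0% to chr9:12592912-13237396. For another 8 baits (Cdh16, Cdh22, both of Cdh24, Cntnap1, both of Nlgn2 and Nrxn2 end) the region held at least 10 gene ends, and all of these baits had a median distance under 1 Mb. The other 10 baits lay between, with a main region inside their own gene (Cntnap2) or with 1 to 6 gene ends. Among them Slitrk3 had 91.0% of its calls in chr3:69700287-71921866, a stretch with ends of Nmd3, Otol1 and Sptssb. Baits of different adhesion genes were seldom joined to each other: Cdh26 with Cdh4 was called in 2 libraries and Cntnap5a with Cntnap5b in 1.

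**Figure D2:**
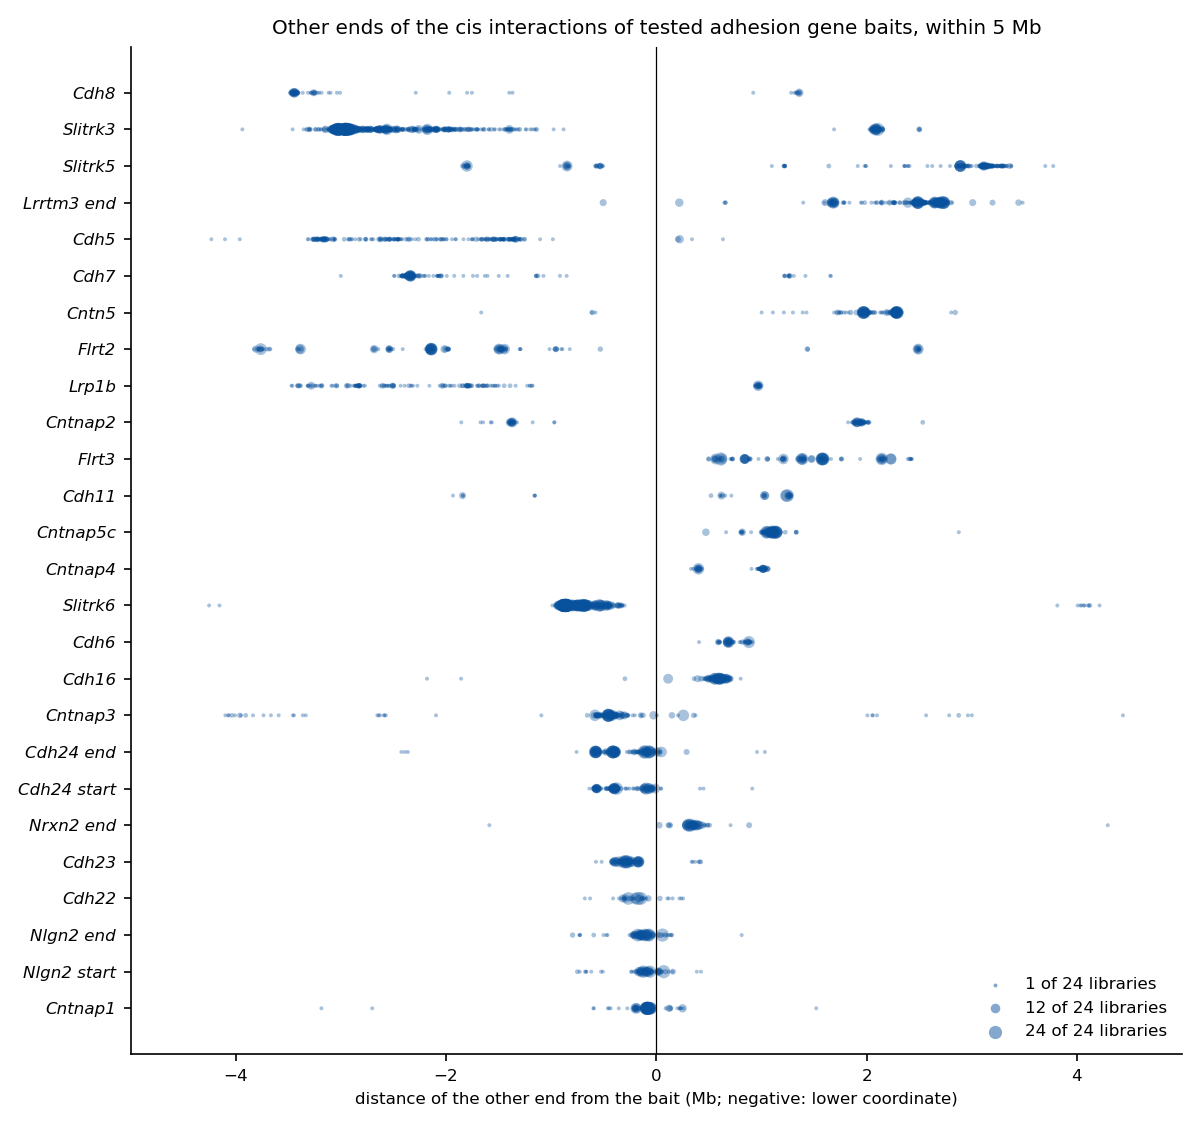
Each row is 1 of the 26 tested baits, ordered with the longest median distance on top, and each dot is a contacted fragment at its distance from the bait in Mb, up to 5 Mb on either side. Larger dots were called in more of the 24 libraries. Slitrk3 and Lrrtm3 end, both long-range, show most of their fragments far to one side. Slitrk3 also has a smaller block on the other side, with 8.09% of its calls. At Flrt2, Slitrk5, Lrp1b and Cntnap2 the fragments lie in blocks on both sides.

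The clearest differences between the stages were at Flrt2, Lrp1b, Cntnap2 and Lrrtm3. Of the 26 tested, 11 were higher in E11.5 WT than in E8.5 WT (42.3%), beside 18.6% of all tested baits, and 1 was lower (3.85%), beside 10.3%. The test was limma's moderated test on log2 calls relative to the library total, with Benjamini-Hochberg adjustment over all 10344 baits and a threshold of 0.05. The median log2 change was 0.70 over the 26 baits and 0.03 over all. The minimum favours higher calls, since 22 of the 24 libraries are of E11.5. Flrt2, Lrp1b, Cntnap2 and Cdh5, all called higher, had under 5 calls in each E8.5 library and passed it through E11.5 alone. So did Cdh8, Cdh11 and Cntnap4, which were not called. A bait high at E8.5 alone would have needed far more calls to pass, so the counts of higher and lower baits are a description. With no minimum, 10 of the 50 baits were higher and 1 was lower. The contrast sets 8 against 2 libraries, but its p-values use the spread between replicate libraries pooled over all 12 groups. Only 2 libraries stand for E8.5. In 8 of the 11 the call held whichever library was left out. Slitrk5, Nlgn2 start, Cdh24 end and the lower bait, Cntnap3, each lost it without E8.5 replicate 1, with adjusted p of 0.168, 0.0797, 0.330 and 0.175, and all of them except Slitrk5 lost it without E8.5 replicate 2 as well. In these fits the lone E8.5 library is taken to vary like the other groups.

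**Figure D3:**
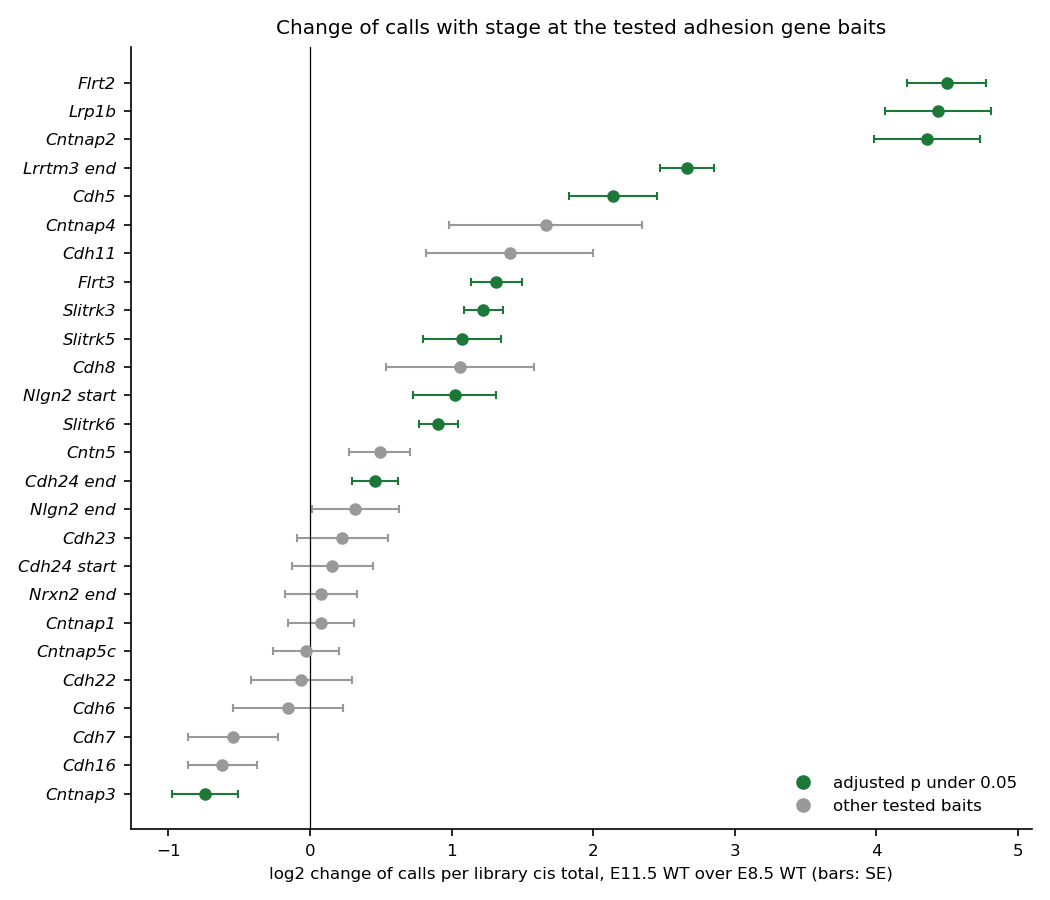
Log2 change in calls, E11.5 WT minus E8.5 WT, with its standard error for each of the 26 tested baits. Green points have an adjusted p under 0.05: the highest are Flrt2, Lrp1b and Cntnap2, at 4.50, 4.44 and 4.36, and Cntnap3, at -0.74, is the single green one below 0.

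Both tested Flrt baits were higher, beside 18.6% of all tested baits. Flrt2, which encodes a ligand of Unc5 receptors and latrophilins, had 17 to 24 calls in E11.5 WT libraries (median 20.5), against 1 and 0 in the E8.5 WT libraries. No E11.5 WT library came near the E8.5 counts, and the 42kb deletion libraries had 15 and 13. The log2 change of Flrt2 was 4.50 (SE 0.28, adjusted p = 2.5e-10), a fitted value that depends on the 0.5 added to each count. Its contacts lay in several blocks, with 89.3% of the calls upstream. The first block, chr12:93497268-93720218, about 2084 kb upstream, had 4 to 10 calls in E11.5 WT libraries and 0 to 1 at E8.5. A second block, chr12:94166584-94266989, had 1 to 8 calls at E11.5 and none listed at E8.5. Neither block holds an end of a protein-coding gene. Downstream, chr12:98176627-98193803 held 9.62% of the calls, with 0 to 3 in E11.5 WT libraries and none listed at E8.5. Flrt3, which binds the same kinds of receptor, had 16 to 32 calls (median 23.5) in E11.5 WT, against 7 and 10, with no overlap. Its log2 change was 1.32 (SE 0.18, adjusted p = 1.19e-05). The main gain was in chr2:142019409-142437582, around an end of Macrod2, with 9 to 13 calls at E11.5 and 2 in each E8.5 library. Nearer to the bait, chr2:141165479-141400534 inside Macrod2 had 1 to 7 calls at E11.5 and 3 to 4 at E8.5, so these ranges overlap.

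The single tested Lrrtm bait and all 3 tested Slitrk baits were higher at E11.5, beside 18.6% of all tested baits. Lrrtm3, a postsynaptic partner of neurexins, had 35 to 59 calls at its end bait (median 40.0) in E11.5 WT libraries, against 7 and 5 at E8.5. Every E11.5 library was far above both E8.5 libraries, and the log2 change was 2.67 (SE 0.19, adjusted p = 1.74e-09). The region chr10:66031828-66907137 had 28 to 51 of these calls at E11.5, against 5 and 6, and chr10:65682640-65925076 had 2 to 11, against none listed. The other Lrrtm3 bait had a mean of 2.50 calls and was not tested. Set against the same E8.5 libraries one tissue at a time, the log2 change of Lrrtm3 end was 2.49 for FNP, 2.39 for Mx, 2.78 for Md and 3.01 for PA2.

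Slitrk proteins are postsynaptic or neuronal surface proteins that bind receptor tyrosine phosphatases. Slitrk3 had 80 to 109 calls (median 102.5) in E11.5 WT, against 42 and 34 in E8.5 WT, the highest counts of any member, and a log2 change of 1.22 (SE 0.14, adjusted p = 1.01e-06). Slitrk6, known from the inner ear and retina, had 56 to 77 calls (median 63.0), against 33 and 29, and a log2 change of 0.91 (SE 0.14, adjusted p = 4.68e-05). In both genes the stages do not overlap, but both E8.5 libraries already had many calls, against 1 and 0 at Flrt2. Slitrk5 had 12 to 24 calls (median 19.0), against 6 and 10, with a log2 change of 1.07 (SE 0.28, adjusted p = 0.00592). Its main region changed more than its total: chr14:114253244-115053555, 2978 kb downstream, had 8 to 21 calls at E11.5 WT, against 0 and 2. Slitrk1 had 1 to 5 calls in E11.5 WT libraries and 0 and 2 at E8.5 and was not tested.

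Among the contactin-associated proteins, relatives of neurexins of which some organise axonal domains, 1 of 5 tested baits was higher and 1 lower. Over all tested baits, 18.6% were higher and 10.3% lower. Cntnap2, known from the juxtaparanodes of myelinated axons, had 7 to 16 calls (median 11.0) in E11.5 WT libraries and was listed at 0 in both E8.5 WT libraries. The groups do not overlap, and the fitted log2 change was 4.36 (SE 0.38, adjusted p = 2.17e-08). Of its calls, 63.6% fell in a stretch of its own gene, chr6:46883373-47089357, which had 4 to 11 calls in E11.5 WT libraries. Cntnap3 went the other way, with 16 to 27 calls (median 23.5) in E11.5 WT, against 36 and 34 at E8.5, and a log2 change of -0.74 (SE 0.23, adjusted p = 0.021). Its region chr13:64246599-64909767 held 10 to 18 calls at E11.5 WT, against 27 and 33. Cntnap4 had 0 to 6 calls, against 0 and 2, and its log2 change of 1.67 missed the threshold (adjusted p = 0.0729). Cntnap1 and Cntnap5c had log2 changes of 0.08 and -0.03.

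Lrp1b, a large endocytic receptor, had 7 to 19 calls (median 11.0) in E11.5 WT and was listed at 0 in both E8.5 WT libraries. The log2 change was 4.44 (SE 0.37, adjusted p = 1.42e-08), with every E11.5 library above both E8.5 libraries. Its calls were spread over chr2:40496045-41480606 around the far end of the gene with 33.3% of them, chr2:39179627-39885178 around Ppp6c and Scai with 31.7%, and chr2:43596936-43637938 within Kynu with 21.2%.

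Of the 8 tested baits of type II cadherins, 2 were higher and none lower, beside 18.6% and 10.3% of all tested baits. Cdh5, Cdh8 and Cdh11 among them passed the minimum through E11.5 alone. Cdh5, the cadherin of endothelial junctions, had 7 to 27 calls (median 22.0) in E11.5 WT libraries, against 4 and 3 in E8.5 WT. The lowest E11.5 library, of Md, came near the E8.5 counts without reaching them, and the log2 change was 2.14 (SE 0.31, adjusted p = 2.6e-05). Of its calls, 92.1% lay in chr8:100785017-102851619, a region that includes an end of Cdh11, with 7 to 25 calls at E11.5 WT and 1 in each E8.5 library. Beside it, the summed calls at 7 other endothelial marker genes with a bait were 37 to 49 in E11.5 WT and 42 in each E8.5 WT library. Cdh24 end had 26 to 37 calls (median 32.5), against 19 and 24, with a log2 change of 0.46 (SE 0.16, adjusted p = 0.0356). Cdh11, a mesenchymal cadherin, had 3 to 9 calls (median 6.5), against 1 and 3, and its log2 change of 1.41 missed the threshold (adjusted p = 0.0777). Cdh8 missed it as well, at 1.06 (adjusted p = 0.138). Cdh6, which is expressed in early neural crest, had 3 to 9 calls, against 3 and 11, and a log2 change of -0.16 (adjusted p = 0.80).

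Among the neuroligins, Nlgn2 start, at the downstream end of the gene for a neuroligin of inhibitory synapses, had 8 to 18 calls, against 5 in each E8.5 library, and a log2 change of 1.02 (SE 0.29, adjusted p = 0.012). The Nlgn2 end bait at its transcription start had 10 to 17, against 9 and 11, with a log2 change of 0.32 (adjusted p = 0.471). Cntn5, a contactin that binds neuronal partners through its immunoglobulin domains, had 20 to 36 calls, against 14 and 19, and a log2 change of 0.49 (adjusted p = 0.0923). Nrxn2 end had 7 to 16, against 8 and 10, with a log2 change of 0.08. Of the 2 tested cadherins outside types I and II, Cdh16, the kidney cadherin, had 13 to 19 calls, against 21 and 22, which does not overlap, but its log2 change of -0.62 missed the threshold (adjusted p = 0.0593). Cdh23 had 9 to 20, against 7 and 17, and a log2 change of 0.23.

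**Figure D4:**
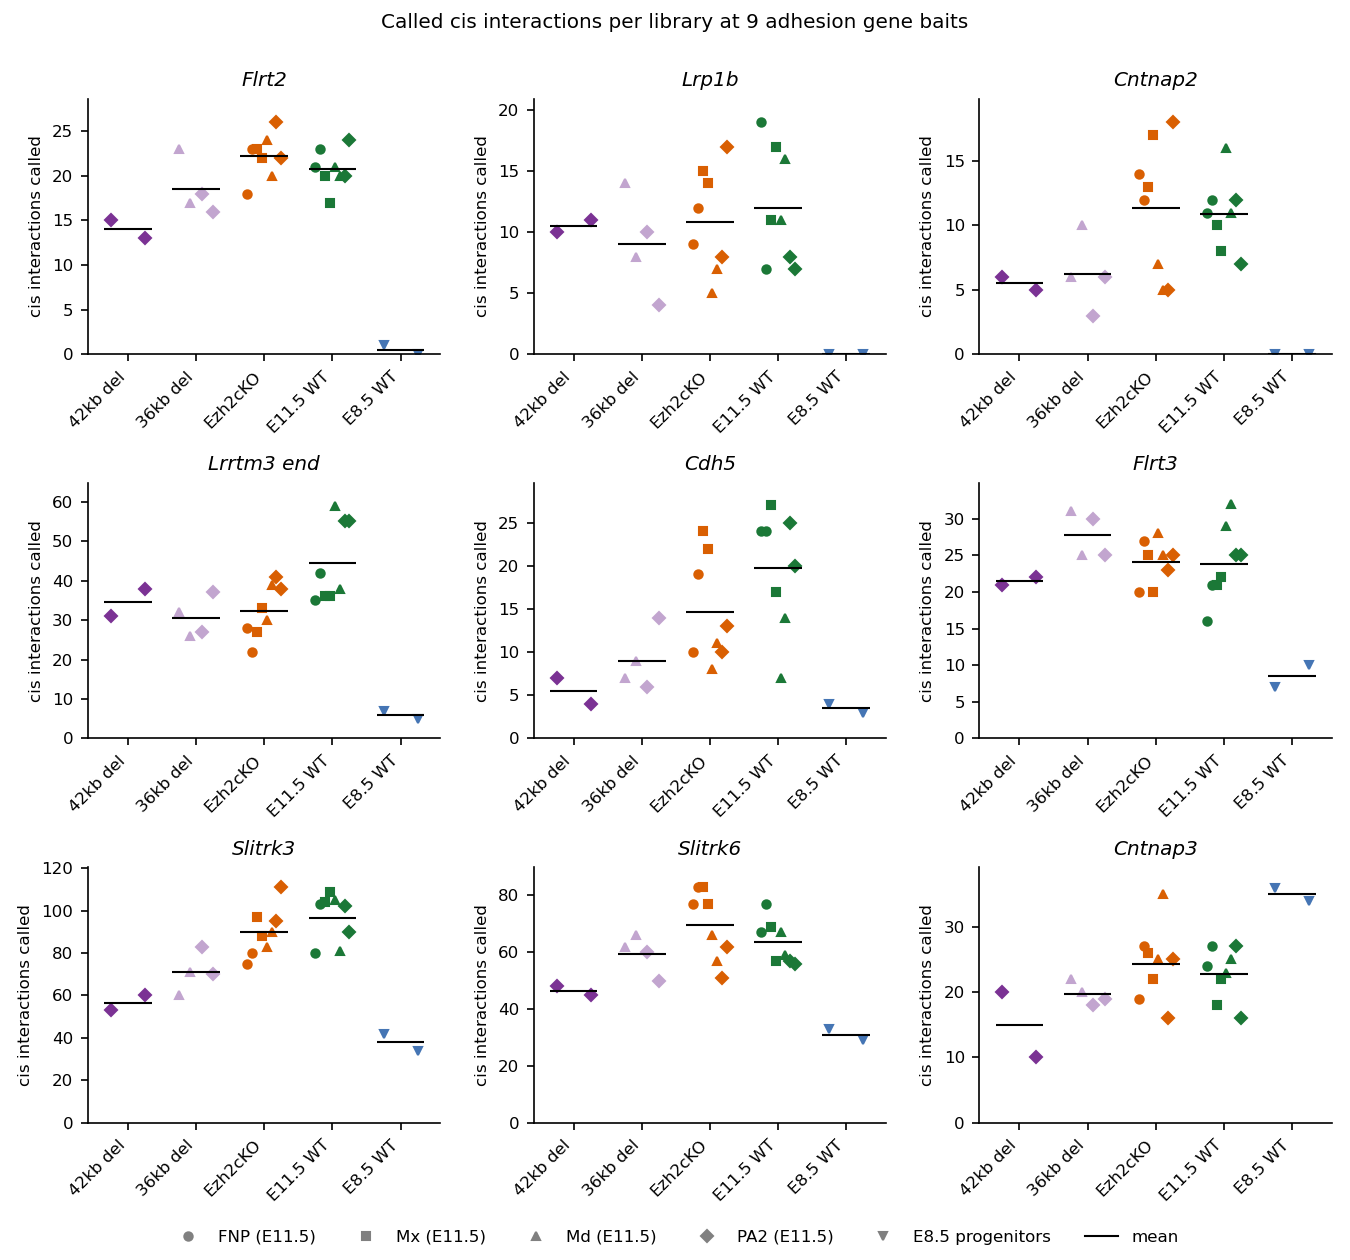
Called cis interactions per library at 9 baits, with the 42kb deletion, the 36kb deletion, Ezh2cKO, E11.5 WT and E8.5 WT from left to right, symbols for the tissue and a bar at each group's mean. Flrt2, Lrp1b and Cntnap2 have 7 or more calls in every E11.5 WT library and 0 to 1 at E8.5, while Cntnap3 has more at E8.5 (36 and 34) than in any E11.5 WT library (16 to 27).

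Single contacts show which fragments the changes were made of. A contact was counted as held by E11.5 WT if at least 7 of its 8 libraries had it and neither E8.5 library did, and as held by E8.5 WT if both had it and at most 1 of the 8 did. At the 50 baits, 70 contacts were held by E11.5 WT, which is 0.632% of the 11074 over all baits, and 35 by E8.5 WT, which is 0.194% of 18037. Of all contacts in at least 7 of 8 E11.5 WT libraries, 7 of 8 Ezh2cKO libraries or both E8.5 libraries, the 50 baits had 0.330%. Lrrtm3 end had 11 of the E11.5 contacts, Cdh24 end and Slitrk3 10 each, Slitrk6 9 and Flrt2 7. Of the E8.5 contacts, Cntnap3 had 11 and Cdh16 6. At Flrt2, the fragment chr12:93550376-93553937 was called in 22 of the 24 libraries, which are all those of E11.5. The Lrrtm3 end bait had such a fragment at chr10:66800545-66803391, and Slitrk6 at chr14:110210813-110214027.

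Distance was tested in its own right for the 18 baits with at least 5 calls in every library of both stages. The median distance of 2 baits was longer in E11.5 WT (beside 11.4% of 6115 baits tested) and that of 1 was shorter (beside 9.68%). Both longer ones belong to Cdh24, a type II cadherin, and the 2 baits adjoin each other, so they are not independent. Cdh24 end had a median distance of 394 to 407 kb in E11.5 WT libraries, against 87.8 and 90.3 kb at E8.5, a ratio of 4.49 (adjusted p = 3.41e-09). Cdh24 start had 377 to 401 kb, against 91.5 and 114 kb, a ratio of 3.81 (adjusted p = 0.000429). The groups do not overlap at either bait, and Ezh2cKO libraries had 395 to 427 kb at Cdh24 end. Single deletion libraries stood apart: Md replicate 1 of the 36kb deletion had 108 kb at Cdh24 start, near the E8.5 values, and PA2 replicate 1 of the 42kb deletion had 251 kb at Cdh24 end. Fragments chr14:54220727-54222137 and chr14:54057380-54057949, which are 417 and 581 kb below the bait, were each called in all 22 E11.5 libraries and in neither at E8.5. Slitrk6 was the shorter one, with 726 to 810 kb in E11.5 WT, against 854 and 857 kb, a ratio of 0.888 (adjusted p = 0.00577). With the mean of log10 distance in place of the median, Cdh24 end kept its call (adjusted p = 2.18e-05), while Cdh24 start (0.123) and Slitrk6 (0.278) lost theirs.

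**Figure D5:**
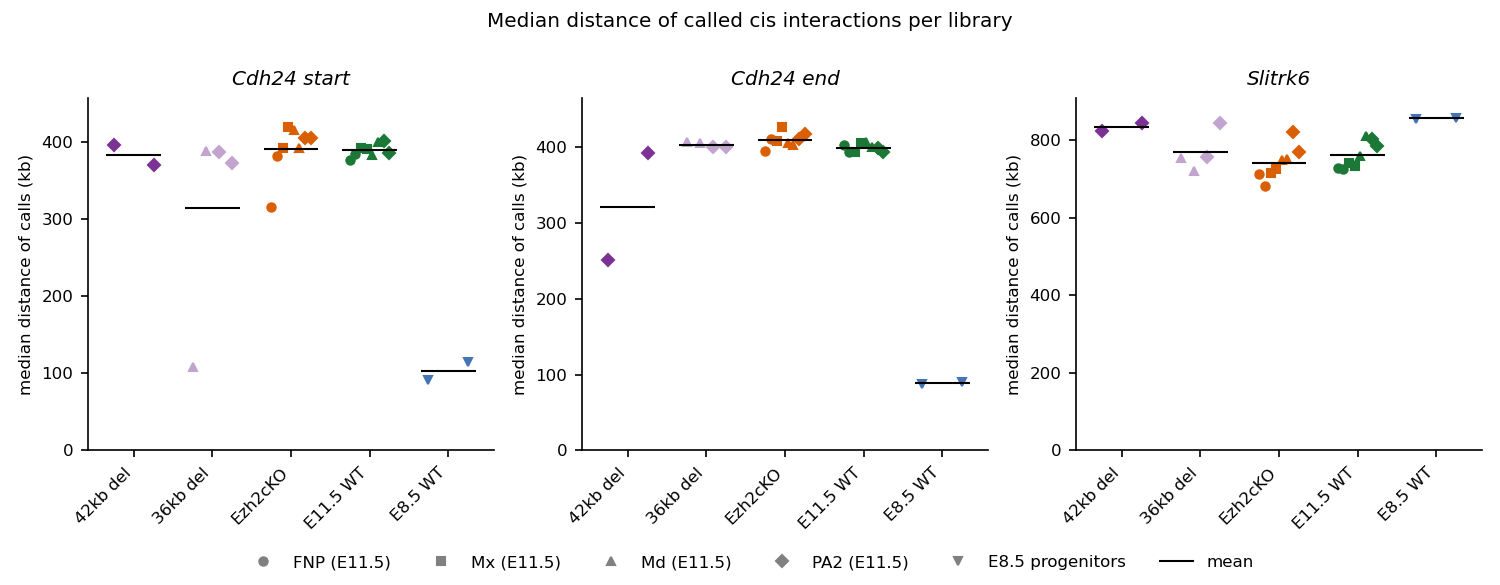
Median distance in kb between bait and called partner in each library, for Cdh24 start, Cdh24 end and Slitrk6, with deletions and Ezh2cKO left of E11.5 WT and E8.5 WT at the right. At both Cdh24 baits the E8.5 WT libraries lie between 87.8 and 114 kb, below every E11.5 WT library.

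Ezh2cKO and WT were also compared over 4 tissues at E11.5. None of the 26 was higher, beside 5.38% of all tested baits, and 1 was lower (3.85%), beside 5.39%. At an unadjusted p under 0.05 there were 8 of the 26, and 2626 of all 10344 tested baits. The median log2 change was 0.02 over the 26 and 0.01 over all. The lower one was Lrrtm3 end, with 22 to 41 calls (median 31.5) in Ezh2cKO libraries, against 35 to 59 (median 40.0) in WT, ranges that overlap. By tissue it had 28 and 22 calls in FNP Ezh2cKO, against 35 and 42 in FNP WT, and 27 and 33 in Mx Ezh2cKO, against 36 and 36 in Mx WT. In PA2 it had 41 and 38 in Ezh2cKO, against 55 and 55 in WT, and in Md 30 and 39, against 59 and 38. Both Ezh2cKO libraries were thus below both WT libraries in 3 of the 4 tissues. The log2 change was -0.49 (SE 0.12, adjusted p = 0.0119), it was called whichever library was left out, and it missed the threshold with scores of at least 7 (adjusted p = 0.0599) or 10 (0.342). Nrxn2 end had 12 to 20 calls in Ezh2cKO, against 7 to 16 in WT, and a log2 change of 0.50 that just missed the threshold (adjusted p = 0.0503). Cdh5 had 8 to 24, against 7 to 27, and a log2 change of -0.46 (adjusted p = 0.142); the sum over the other endothelial marker genes was 22 to 39 in Ezh2cKO and 37 to 49 in WT. Flrt2, Lrp1b and Cntnap2 kept calls in every Ezh2cKO library, with 18 to 26, 5 to 17 and 5 to 18.

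Single contacts were compared between the genotypes as well. Of contacts in at least 7 of 8 libraries of one side and at most 1 of the other, the 50 baits had 2 of 981 held by Ezh2cKO, 1 each at Cdh23 and Nrxn2 end, and 2 of 1443 held by WT, 1 each at Lrrtm3 end and Cdh24 start. Of the 21 baits tested for distance, none differed between Ezh2cKO and WT, beside 1.22% longer and 2.76% shorter of 6159 baits; 1 of the 21 and 920 over all had an unadjusted p under 0.05. No bait among the 26 had an Ezh2cKO change that differed between tissues, beside 0.00967% of all baits. At an unadjusted p under 0.05 there were 0 of the 26 and 598 of all 10344 tested baits.

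In the deletion lines, the 26 baits had more values below 0 than above. In the 36kb deletion over Md and PA2, none was higher, beside 5.46% of all baits, and 2 were lower (7.69%), beside 5.65%; the median log2 change was -0.13, against 0.04 over all baits. In the 42kb deletion in PA2, none was higher, beside 0.822%, and 2 were lower (7.69%), beside 1.02%, with a median of -0.17, against 0.04. The summed calls at 12 neuron and glia marker genes were 42 to 50 in the 42kb deletion, 48 to 53 in the 36kb deletion and 32 to 47 in E11.5 WT libraries, and 1 of their 3 tested baits was higher in each deletion. Their part in the result was not tested. Unadjusted p under 0.05 was reached by 4 and 6 of the 26, and by 2824 and 1786 of all 10344 tested baits, for the 36kb and the 42kb deletion. Both comparisons share the PA2 WT libraries with each other and with the Ezh2cKO comparison, so the values stand side by side without being independent. All 4 calls were lost when either PA2 WT library was left out, with adjusted p of 0.0779 to 0.233.

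Cdh8, a type II cadherin of neural circuits, had 5 and 3 calls in Md and 1 and 2 in PA2 of the 36kb deletion, against 9 and 8 in Md WT and 7 and 11 in PA2 WT. The log2 change was -1.45 (SE 0.47, adjusted p = 0.0489). In PA2 of the 42kb deletion it had 3 and 0, against the same 7 and 11, and a log2 change of -2.67 (SE 0.66, adjusted p = 0.0401). The counts do not overlap in either comparison, but they are small. The call held in 1 of 8 fits with 1 library left out for the 36kb deletion and in 1 of 4 for the 42kb deletion. Lrrtm3 end had 32 and 26 calls in Md and 27 and 37 in PA2 of the 36kb deletion, against 59 and 38 and 55 and 55 in WT. Its log2 change was -0.55 (SE 0.17, adjusted p = 0.0413), called in 2 of 8 such fits. In the 42kb deletion it had 31 and 38 calls, with a log2 change of -0.53 (adjusted p = 0.256). Cdh5 had 7 and 4 calls in PA2 of the 42kb deletion, against 25 and 20 in PA2 WT, and a log2 change of -1.84 (SE 0.39, adjusted p = 0.0192), called in 1 of 4 such fits. The sum over the other endothelial marker genes was 46 and 47 in the 42kb deletion, 29 to 41 in the 36kb deletion and 37 to 49 in E11.5 WT libraries. In the 36kb deletion Cdh5 had 7 and 9 calls in Md and 6 and 14 in PA2, against 7 and 14 in Md WT and 25 and 20 in PA2 WT, and a log2 change of -0.57 (adjusted p = 0.186).

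Between the 4 WT tissues at E11.5, no adhesion gene bait differed (limma's F test), beside 0.271% of all baits. At an unadjusted p under 0.05 there were 3 of the 26 and 1013 of all 10344 tested baits. Against the same E8.5 libraries, the log2 change of Flrt2 was 4.59 for FNP, 4.33 for Mx, 4.48 for Md and 4.59 for PA2, and that of Slitrk3 was 1.15, 1.36, 1.16 and 1.23.

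Genes that work with these adhesion proteins moved in both directions between the stages, under the same minimum and beside the same 18.6% higher and 10.3% lower over all baits. Of 9 tested baits of catenin and junction genes, 1 was higher in E11.5 WT and 1 lower. Nectin3, an immunoglobulin-type adhesion protein of adherens junctions, had a mean of 16.0 ± 4.4 calls in E11.5 WT (SD, n = 8) and 2.50 ± 0.71 in E8.5 WT (n = 2), with a log2 change of 2.32 (adjusted p = 2.66e-07). Ctnnd1, p120 catenin, which binds cadherin tails, had a log2 change of -0.84 (adjusted p = 0.0237). Of 17 baits of other synaptic adhesion partners, 2 were higher (Lrfn5 by 1.37 and Fgfr1 by 0.99) and 3 lower, of which 2 belong to Cadm4 (log2 changes of -1.06 and -0.60) and 1 to Lrfn1 (-0.67). Of 6 baits of neural immunoglobulin adhesion genes, Ncam2 was higher by 2.24 and Nrcam and Nfasc lower, at -2.29 and -1.24. Of 7 baits of synaptic scaffold genes, Magi2 was higher by 0.74. Of 4 tested baits of LDL receptor genes, 2 were higher and 1 lower. Among them were Lrp6, a Wnt co-receptor, higher by 1.10, and Lrp4, lower at -0.58.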

How the data were processed

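The data are promoter capture Hi-C interaction calls of 24 mouse libraries, 2 in each of 12 groups, which were set by the samples' titles. Per the deposited file names, the authors called interactions with CHiCAGO in each library separately. Each line pairs a bait with another fragment and gives a score, and the deposited score was 5 or more on every line. Coordinates are in mm10 (GRCm38), per the submitters' processing notes, and no aligner or setting is named in the sources used here. Scores were used only as a threshold, because they are set against each library's own background.

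Cis calls of each bait were counted from either position in a pair. The count plus 0.5 was divided by the library's cis total, and log2 of it was fitted with limma 3.58.1 (lmFit and eBayes with trend, in R 4.3.3) as 12 group means over all 24 libraries. Baits averaging 5 calls or more were tested, two-sided, with Benjamini-Hochberg adjustment over all of them. Distance was fitted likewise, as the median log10 distance between fragment midpoints per bait and library, for baits with at least 5 calls in each library of the comparison. A contact region joins called fragments less than 100 kb apart. The procedure was tested on simulated data. Promoter sequences and gene strands are from RefSeq. Counting was done with Python 3.11.15 and pandas 2.3.3, and figures with matplotlib 3.10.9.

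The named genes are those past the threshold in a comparison, the fixed set Cdh1, Cdh2, Cdh5, Cdh6, Cdh11, Cntnap2, Flrt2 and Lrp1b, each subfamily's bait with most calls, and for partner lists the largest changes. A few items that these rules name are not reported here. The members and all gene lists were chosen with earlier results of these data known. Each library has a batch label of its own, so batches could not be tested. Titles call the replicates biological except for the 42kb deletion, where they may be technical. Alternatives varied the score, the filter, the library total, the added count, the samples in the fit, the replicate block, the member rule and each library left out.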

Additional observations from a re-analysis of the deposited data

Results flagged for a closer look

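Calls between a member bait and another chromosome were outside every comparison above. The 50 baits had 260 of them over the 24 libraries, which is 1.88% of their calls, beside 3.52% over all baits. For 5 pairs of a bait and a chromosome there were more than 3 calls. That limit is not an expected count, since no expected rate of such calls was computed. No explanation was tested for any of these 5 pairs.

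The Cntnap3 bait was joined to chromosome X 23 times in 15 libraries, at only 2 fragments, and 14 of these calls fell on chrX:121678554-121684735. By group there were 12 calls in Ezh2cKO, 5 in the deletions, 2 in E11.5 WT and 4 in E8.5 WT libraries. The same bait had 8 calls to chromosome 3 in 7 libraries, 4 of them on 1 fragment at Ttc14. The Cntnap5b bait had 9 calls to chromosome 8 in 8 libraries, 7 of them on 1 fragment at Prdx2. The Cntnap2 bait had 8 calls to chromosome 7 in 6 libraries, every one of them Ezh2cKO, spread over 4 fragments. The Cntn2 bait had 7 calls to chromosome X in 7 libraries, 5 of them on 1 fragment at Dynlt3, which is beside 27 cis calls of that bait in all.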

How the results depend on the processing

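With a minimum score of 10, 4 of 6 tested baits changed between the stages, against 12 of 26 as reported. Under the other planned or added settings the stage count lay within 1.5 times of 12, and with 1 library left out it was 8 to 13. For Ezh2cKO against WT the count was 1 as reported. It was 2 with 1 added, with no library total, with a mean of at least 10 calls, with only the groups of the contrast, with the replicate block and with the first position only, and 0 with a score of at least 10. With 1 library left out it was 1 to 2. For the 36kb deletion it was 2 as reported, 5 with no library total, 1 with a mean of at least 2 or 10 calls, only the groups of the contrast, the replicate block, baits that hold a gene end or the first position only, and 0 with a score of at least 7 or 10 or with no filter. With 1 library left out it was 0 to 2. For the 42kb deletion it was 2 as reported, 0 with a score of at least 7 or 10, and 1 with a mean of at least 10 calls, only the groups of the contrast, baits that hold a gene end or baits at a RefSeq start, and 0 to 2 with 1 library left out. Distance changes between the stages numbered 3 as reported, 1 with a score of at least 7 (none of the same baits: neither Cdh24 bait had enough calls, and Slitrk6, with a log10 change of -0.0061 and an adjusted p of 0.55, lost its call), 5 with only the groups of the contrast, and 3 to 5 with 1 library left out. The distance count for Ezh2cKO was 0 as reported, 1 with a score of at least 7 and 0 to 1 with 1 library left out. No tissue or interaction call appeared with any library left out. The mean share of E11.5 WT cis calls at the members was 0.365%, and 0.426%, 0.496% and 0.271% with scores of at least 7, at least 10, and with baits that hold a gene end. Contacts held by E11.5 WT numbered 38 with a score of at least 7 and 37 under the stricter rule of all libraries against none, those held by E8.5 WT 16 and 19, those held by Ezh2cKO 0 and 0, and those held by WT 1 under the stricter rule.

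The added settings (first position only, RefSeq starts) were chosen after seeing the data. Of 827 recomputed values of single named baits, 780 stayed on their side of the threshold, 46 calls were lost and 1 was gained. The gain was Cdh11 between the stages with only those groups in the fit (adjusted p = 0.0219). No bait called in the main fit changed sign. Baits that were not called could do so: with 1 library left out, the log2 change of Cdh6 between the stages was -0.98 to 0.67. Replicate numbers do not pair the samples: over 66 pairs of groups the correlation of same-numbered deviations was -0.09 to 0.16, and 1 was over 0.1. The replicate block moved no count other than those named above. Counts across all baits also moved, to 611 called between the stages with a score of at least 10, against 2991. The read depth is unknown, and groups of 2 libraries limit the precision of every value.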

Other observations

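The delta-protocadherins, cadherin relatives outside the symbols counted above, had 8 tested baits, of which 4 had more calls in E11.5 WT than in E8.5 WT and 2 had fewer, by limma's test adjusted over all baits, beside 18.6% higher and 10.3% lower of all tested baits. The bait of Pcdh10, a protocadherin known from the nervous system, averaged 94.1 ± 12.2 calls in E11.5 WT (SD, n = 8) and 8.5 ± 3.5 in E8.5 WT (n = 2), a log2 change of 3.33 (adjusted p = 4.77e-12). Pcdh9 averaged 42.1 ± 8.6 calls in E11.5 WT and 9.00 ± 5.66 in E8.5 WT, a log2 change of 2.17, and Pcdh17 averaged 37.0 ± 9.1 and 11.0 ± 2.8, a log2 change of 1.57. Pcdh20 was higher by 0.86. Pcdh1 and Pcdh8 were lower, with log2 changes of -1.20 and -1.06, and Pcdh1 averaged 17.5 ± 2.3 calls in E11.5 WT and 37.5 ± 0.7 in E8.5 WT.

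Between Ezh2cKO and WT, 1 of these 8 baits was higher, beside 5.38% of all tested baits. It was Pcdh8, with 17.1 ± 3.5 calls in Ezh2cKO and 12.2 ± 3.2 in WT (n = 8 each) and a log2 change of 0.44 (adjusted p = 0.0272). Among the partners of the adhesion genes, Lrfn2, a leucine-rich repeat protein of synapses, was higher in Ezh2cKO, with 20.9 ± 1.7 calls against 13.8 ± 1.0 in WT (log2 change of 0.55, adjusted p = 0.0039). Both baits of Nectin2, an adhesion protein of junctions, were lower in Ezh2cKO, with log2 changes of -0.58 and -0.57, as was 1 bait of Cadm4 (-0.45), while Nectin3 was higher by 0.48. In both deletions Clstn3, a calsyntenin that binds neurexins, was lower, at -0.97 in the 42kb and -1.07 in the 36kb deletion, in comparisons that share the PA2 WT libraries. Shank3 was lower at -2.68 in the 36kb deletion. In that deletion, 1 of 17 tested partner baits was higher and 2 lower. Of 7 scaffold baits 2 were lower, and of 6 immunoglobulin adhesion baits 1 was higher. In the 42kb deletion 1 of the 17 was lower. Over all baits, 5.46% were higher and 5.65% lower in the 36kb deletion, and 0.822% and 1.02% in the 42kb deletion.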
